A study of Mus musculus with 12 samples.

Results

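The genes described here are *Il6*, *Tnfa* (RefSeq symbol *Tnf*), and *Il10*, which encode 3 secreted cytokines of myeloid cells. They were taken by name, and all 3 were present among the 43 panel genes and 5 house-keeping genes of a NanoString nCounter assay, in which each target transcript is counted through its own fluorescent barcode with no amplification step. The study used 12 tumors grown under the skin of C57BL/6 mice, 6 to 8 weeks old, from B16.F10, a mouse melanoma line. At a volume of about 200 mm3, each was injected once with 100 µL and was harvested 6 hours later. The injection was PBS (4 tumors), free D-PDB (4 tumors), or NanoISD at a dose of 2 µg of DNA (4 tumors). D-PDB is the diblock copolymer carrier on its own, given at an equivalent dose, and NanoISD is the same carrier loaded with interferon stimulatory DNA (ISD). No group received the DNA without the carrier, so the comparison of NanoISD with D-PDB is the one that differs by the DNA cargo. Each deposited value is a log2 fold change relative to the PBS-treated tumors, scaled to the house-keeping genes, so the levels of different genes cannot be ranked against each other, and the counting depth behind a value is unknown. None of 25 lineage markers listed for melanoma, myeloid, lymphoid, and stromal cells was among the 48 genes, and the cellular makeup of the tumors was therefore not checked.

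DNA in the cytosol is sensed by cGAS, which produces a cyclic dinucleotide that activates STING. STING then engages the transcription factor IRF3, which drives type I interferon genes, and NF-κB, which drives inflammatory cytokine genes. *Il6* and *Tnf* are established NF-κB target genes in macrophages and dendritic cells. IL-6 acts on lymphocytes, stromal cells, and the liver through STAT3, and TNF acts on endothelium and leukocytes through its own pair of receptors. IL-10, which also signals through STAT3, restrains the production of inflammatory cytokines by myeloid cells, and its gene is commonly induced after the inflammatory genes in the same cells.

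The bases that precede the annotated starts of *Il6* and *Tnf* are shown because both genes are textbook targets of the same transcription factor. The sequences are from RefSeq (GRCm38.p6), on the strand of the gene and 5′ to 3′, and each ends at the base before the start. Capitals mark every match to the motifs searched on both strands. *Il6* lies at chr5:30012864-30013113 (plus strand), and *Tnf* at chr17:35202008-35202257 (minus strand).
*Il6*: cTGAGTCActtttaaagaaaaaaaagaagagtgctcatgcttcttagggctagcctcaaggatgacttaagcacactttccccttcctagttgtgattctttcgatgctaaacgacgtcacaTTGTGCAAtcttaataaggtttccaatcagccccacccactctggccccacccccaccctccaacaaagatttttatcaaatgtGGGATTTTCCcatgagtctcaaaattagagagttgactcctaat
*Tnf*: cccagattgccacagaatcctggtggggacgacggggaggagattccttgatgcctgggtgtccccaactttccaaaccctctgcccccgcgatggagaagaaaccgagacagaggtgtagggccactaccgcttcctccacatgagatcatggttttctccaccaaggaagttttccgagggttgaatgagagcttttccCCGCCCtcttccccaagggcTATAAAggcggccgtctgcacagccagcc

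In the *Il6* window, the 3 matches were to the NF-κB consensus (GGGATTTTCC, 44 bases before the start), to the AP-1 motif TGANTCA (249 bases before), and, on the opposite strand, to the C/EBP motif TTGCNNAA (128 bases before). Of 32851 windows of this length in the table, 3.90% held the NF-κB consensus, 6.75% the AP-1 motif, and 9.56% the C/EBP motif. In the *Tnf* window, the 2 matches were to the TATA box TATAAA (29 bases before the start, held by 12.4% of windows) and, on the opposite strand, to the GC box GGGCGG (49 bases before, held by 32.7%). No marked match overlapped another. The CRE TGACGTCA (1.55% of windows), the GAS motif TTCNNNGAA (7.02%), and the interferon-stimulated response element (GAAA, 2 free bases, and GAAA again, 2.98%) had no match in either window. These are matches of letters in 250 bases and were not tested for binding. Sites farther from the start, or sites that depart from these letters, would not be found. A window without a match therefore does not show that the gene lacks such a site. Any link between the matches and the values in the tumors was not tested.

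*Il6* rose after NanoISD more than most genes of the panel. Its values were 4.42, 2.30, 4.73, and 3.28 in NanoISD tumors 1, 2, 3, and 4. After D-PDB, tumors 1 to 4 were at 0.49, -0.20, 0.88, and 1.22, and after PBS they were at 1.0, 0.13, -0.13, and -1.0. The lowest NanoISD-treated tumor, at 2.30, thus lay above the highest of the 8 other tumors, D-PDB tumor 4 at 1.22. The means were 3.68 ± 1.11 (SD, n = 4) with NanoISD, 0.60 ± 0.61 (SD, n = 4) with D-PDB, and 0.00 ± 0.82 (SD, n = 4) with PBS. Since whole tumors were measured, a change in the number of cells that make a transcript and a change in the transcript per cell cannot be told apart, here and for the other genes.

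The difference in *Il6* between NanoISD and PBS was 3.68 on the log2 scale, a 12.8-fold change with a 95% interval from 5.46 to 30.2-fold (adjusted p = 0.000448 in limma). Between NanoISD and D-PDB it was 3.09, an 8.49-fold change with an interval from 3.61 to 19.9-fold (adjusted p = 0.00252 in limma). All 16 pairs of tumors had the higher value in the NanoISD-treated tumor in either comparison, which share the NanoISD-treated tumors. Both calls held in all 21 alternative limma fits, with a difference of at least 3.33 from PBS and 2.74 from D-PDB.

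The PBS-treated tumors themselves spread widely for this gene. *Il6* covered 2.00 log2 units between PBS tumor 4 and PBS tumor 1, and its SD of 0.82 was the 5th largest of the 43 panel genes after PBS, where the median SD over the panel was 0.33. In PBS tumor 4, *Il6* had the lowest value of all 43 genes.

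*Il10* rose as well, by less than *Il6*. Its values were 3.24, 1.03, 2.34, and 1.66 in NanoISD tumors 1 to 4. After D-PDB, tumors 1 to 4 were at -0.35, 0.86, -0.24, and 0.95, and after PBS at 0.17, 0.10, -0.11, and -0.15. The NanoISD-treated tumors lay above all 8 other tumors, although the margin between NanoISD tumor 2, at 1.03, and D-PDB tumor 4, at 0.95, was narrow. The means were 2.07 ± 0.95 (SD, n = 4) with NanoISD, 0.31 ± 0.70 (SD, n = 4) with D-PDB, and 0.00 ± 0.16 (SD, n = 4) with PBS.

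*Il10* differed by 2.07 between NanoISD and PBS, a 4.18-fold change with a 95% interval from 2.06 to 8.52-fold (adjusted p = 0.00476 in limma). Relative to D-PDB, *Il10* was higher by 1.76, a 3.39-fold change with an interval from 1.67 to 6.91-fold (adjusted p = 0.0157 in limma). The call against PBS held in all 21 alternative limma fits. The call against D-PDB was lost when D-PDB tumor 1 was left out (difference 1.54, adjusted p = 0.0559 in limma), when D-PDB tumor 3 was (1.58, adjusted p = 0.0513), and with the PBS-treated tumors out of the fit (1.76, adjusted p = 0.0590), and its adjusted p ranged from 0.00312 to 0.0590 over these fits. The D-PDB-treated tumors formed a low and a high pair for this gene, with tumors 1 and 3 below 0 and tumors 2 and 4 above all PBS-treated tumors.

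*Tnfa* had the smallest differences of the 3 genes between NanoISD and the other treatments. Its values were 0.99, -0.10, 1.04, and 0.21 in NanoISD tumors 1 to 4. They were -0.74, -0.23, -0.64, and -0.30 after D-PDB and -0.13, 0.20, 0.16, and -0.23 after PBS. NanoISD tumor 2 fell among the PBS-treated tumors and NanoISD tumor 4 just above them, while the D-PDB-treated tumors lay at or below the lowest PBS-treated tumor. The means were 0.54 ± 0.57 (SD, n = 4) with NanoISD, -0.48 ± 0.25 (SD, n = 4) with D-PDB, and 0.00 ± 0.21 (SD, n = 4) with PBS.

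Against PBS, *Tnfa* did not pass the threshold, with a difference of 0.54 (adjusted p = 0.188 in limma). The 95% interval of that difference, from 0.87 to 2.40-fold, reached from below no change to above a 2-fold change. In 14 of 16 pairs the NanoISD-treated tumor had the higher value. Against D-PDB, *Tnfa* was higher after NanoISD by 1.01, a 2.02-fold change with an interval from 1.22 to 3.35-fold (adjusted p = 0.0470 in limma), and all 16 pairs had the higher value in the NanoISD-treated tumor. That call was close to the threshold, and its adjusted p ranged from 0.00795 to 0.114 over 21 alternative fits. It was lost when any one of 9 tumors was left out, namely PBS tumors 1 to 4, D-PDB tumors 1, 2, and 3, and NanoISD tumors 1 and 3, with differences between 0.84 and 1.10. It was also lost with only the 2 compared groups in the fit, with array weights, with the replicate number as a block, and without *Gapdh* in the scaling, with adjusted p between 0.0549 and 0.114 in limma.

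**Figure D1:**
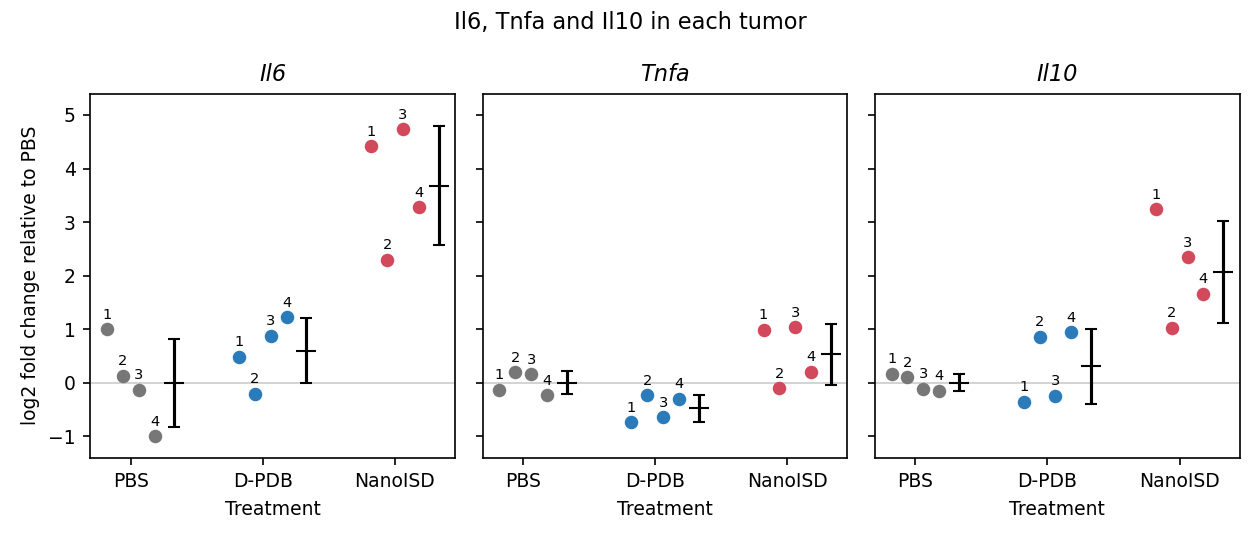
Log2 fold change relative to PBS (vertical axis) of *Il6*, *Tnfa*, and *Il10* in each of the 12 tumors by treatment (horizontal axis). Points are single tumors with their numbers, and the black bars are the mean ± SD of 4 tumors. NanoISD-treated tumors lay above all other tumors for *Il6* (2.30 to 4.73) and *Il10* (1.03 to 3.24), and overlapped with the PBS-treated tumors for *Tnfa* (-0.10 to 1.04).

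These calls are to be read against a panel in which many genes rose. Against PBS, 2 of the 3 cytokine genes passed the threshold, beside 51.2% of the 43 panel genes that were called higher. The same 2 genes showed no overlap between NanoISD- and PBS-treated tumors, beside 41.9% of the panel. Against D-PDB, all 3 genes passed, beside 25.6% of the panel, and all 3 showed no overlap, beside 18.6% of the panel. The panel's share against D-PDB was itself unsteady. It rested on 11 genes, and this count was 5 when D-PDB tumor 1 or 3 was left out, 7 when D-PDB tumor 2 was, 17 when D-PDB tumor 4 was, 20 when NanoISD tumor 2 was, and 2 with the PBS-treated tumors out of the fit.

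By size, *Il6* ranked 3rd of 43 in the difference from PBS, between *Cxcl10* (3.99), which encodes a chemokine for activated T cells, and *Cxcl13* (3.09), which encodes a B cell chemokine. *Il10* ranked 11th, between *Ccl9* (2.09) and *Ccl3* (2.05), which both encode chemokines of myeloid cells. *Tnfa* ranked 34th, between *Ifnb1* (0.65), the gene of interferon β, and *Ccl28* (0.39), an epithelial chemokine gene. The median difference over the panel was 1.20, so *Il6* lay 2.48 and *Il10* 0.86 above it, and *Tnfa* 0.67 below. Against D-PDB, *Il6* ranked 2nd and *Il10* 10th, and *Tnfa*, at rank 22, was itself the median gene of the panel, with 1.01.

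**Figure D2:**
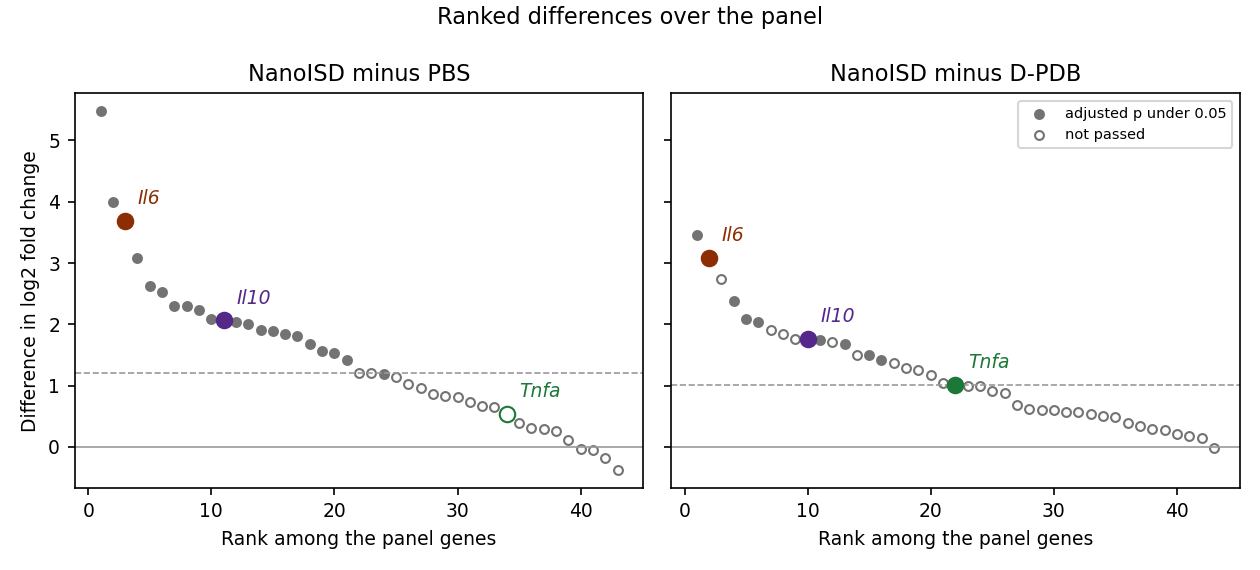
Differences in log2 fold change (vertical axis) of the 43 panel genes, ranked from highest to lowest (horizontal axis), for NanoISD minus PBS (left) and NanoISD minus D-PDB (right). Filled points passed an adjusted p of 0.05 in limma, open points did not, and the dashed line is the median of the panel. *Il6* stood near the top in both (3.68 and 3.09), *Il10* in the upper range (2.07 and 1.76), and *Tnfa* below the median against PBS (0.54) and on it against D-PDB (1.01).

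The carrier alone left no call in these genes. In limma, 0 of the 3 genes and 0% of the panel passed for D-PDB against PBS. The 1 panel gene with an unadjusted p below 0.05 was *Cxcl5*, which is none of the 3. Complete separation of D-PDB- from PBS-treated tumors occurred in 2.33% of the panel and in none of the 3 genes. The difference was 0.60 for *Il6*, with a 95% interval from -0.64 to 1.83 (adjusted p = 0.831 in limma). For *Il10* it was 0.30, with an interval from -0.72 to 1.33 (adjusted p = 0.831 in limma). For *Tnfa* it was -0.48, with an interval from -1.21 to 0.25 (adjusted p = 0.813 in limma). Each interval reached past 1 log2 unit in the direction of its difference, so this fit could not tell changes of that size from none. The fit has 4 tumors per treatment and shares 1 estimate of spread per gene over the 3 treatments. For *Tnfa*, the SD was 0.21 after PBS and 0.25 after D-PDB, but 0.57 after NanoISD. With only D-PDB and PBS in the fit, its limma p was 0.0577 before adjustment and 0.389 after. The small differences between D-PDB and PBS also turned on single tumors, with no call in any of these fits. That of *Il6* was 0.26 when PBS tumor 4 was left out, 0.39 when D-PDB tumor 4 was, and 0.93 when PBS tumor 1 was. That of *Il10* was 0.09 when D-PDB tumor 4 was left out, 0.12 when D-PDB tumor 2 was, 0.48 when D-PDB tumor 3 was, and 0.52 when D-PDB tumor 1 was.

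*Tnfa* was the one of the 3 genes with a lower mean after D-PDB than after PBS. In 0 of 16 pairs was the D-PDB-treated tumor the higher one, and in 1 pair, D-PDB tumor 2 and PBS tumor 4, both tumors were at -0.23. The exact permutation test over the 70 splits of these 8 tumors gave a two-sided p of 0.0571 for *Tnfa*, 0.314 for *Il6*, and 0.429 for *Il10*, before adjustment. The position of *Tnfa* after D-PDB makes up 0.48 of its difference of 1.01 between NanoISD and D-PDB, and the position above PBS makes up 0.54. Whether its difference from D-PDB exceeds that from PBS is the same question as D-PDB against PBS, which did not pass.

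**Figure D3:**
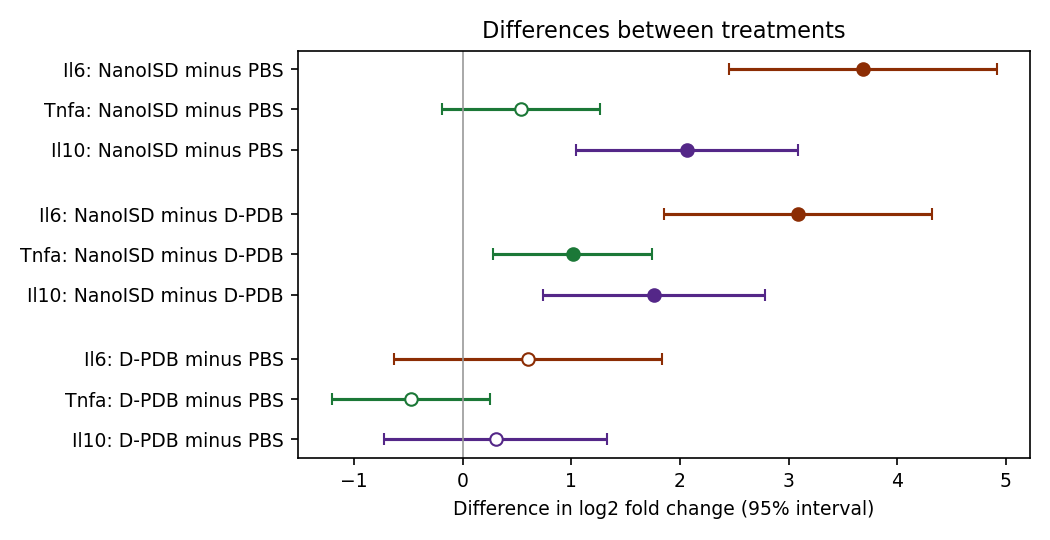
Differences in log2 fold change between treatments (horizontal axis) for *Il6*, *Tnfa*, and *Il10*, with 95% intervals from limma. Filled points passed an adjusted p of 0.05 and open points did not. The intervals of *Il6* and *Il10* lay above 0 in both comparisons with NanoISD, that of *Tnfa* only against D-PDB (0.28 to 1.74), and all 3 spanned 0 for D-PDB minus PBS.

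An exact permutation test of each single gene, which needs no shared estimate of the spread, cannot give a p below 0.0286 with 4 tumors against 4. *Il6* and *Il10* reached this smallest p against PBS and against D-PDB, and *Tnfa* reached it against D-PDB but not against PBS (exact p = 0.114). Adjusted over the 43 genes, these exact p-values were 0.0683 for *Il6* and *Il10* against PBS and 0.154 for all 3 genes against D-PDB, so the calls at 0.05 rest on the limma fit.

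Within each tumor, the 3 genes can be set against each other, since a scaling factor common to all genes of a tumor cancels in their difference. The value of *Il6* exceeded that of *Tnfa* by 3.43, 2.40, 3.69, and 3.07 in NanoISD tumors 1 to 4. After D-PDB this excess was 1.23, 0.03, 1.52, and 1.52, and after PBS 1.13, -0.07, -0.29, and -0.77. The NanoISD-treated tumors did not overlap with the others, whose highest excess was 1.52.

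The excess of *Il10* over *Tnfa* was 2.25, 1.13, 1.30, and 1.45 in NanoISD tumors 1 to 4. It was 0.39, 1.09, 0.40, and 1.25 in the D-PDB-treated tumors and between -0.27 and 0.30 in the PBS-treated tumors. Here D-PDB tumor 4 exceeded NanoISD tumor 2, so NanoISD and D-PDB overlapped. The lowest D-PDB-treated tumor, at 0.39, lay just above the highest PBS-treated tumor, at 0.30, and 5.20% of the 903 pairs of panel genes showed no overlap between D-PDB and PBS in either direction.

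The excess of *Il6* over *Il10* was 1.18, 1.27, 2.39, and 1.62 in NanoISD tumors 1 to 4. It ranged from -1.06 to 1.12 after D-PDB and from -0.85 to 0.83 after PBS. All NanoISD-treated tumors lay above the others, by a narrow margin of 1.18 against 1.12. Over the 903 pairs of panel genes, 10.3% showed no overlap between the NanoISD-treated tumors and the 8 others in either direction. These within-tumor differences are given as values, and no test was made of them.

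**Figure D4:**
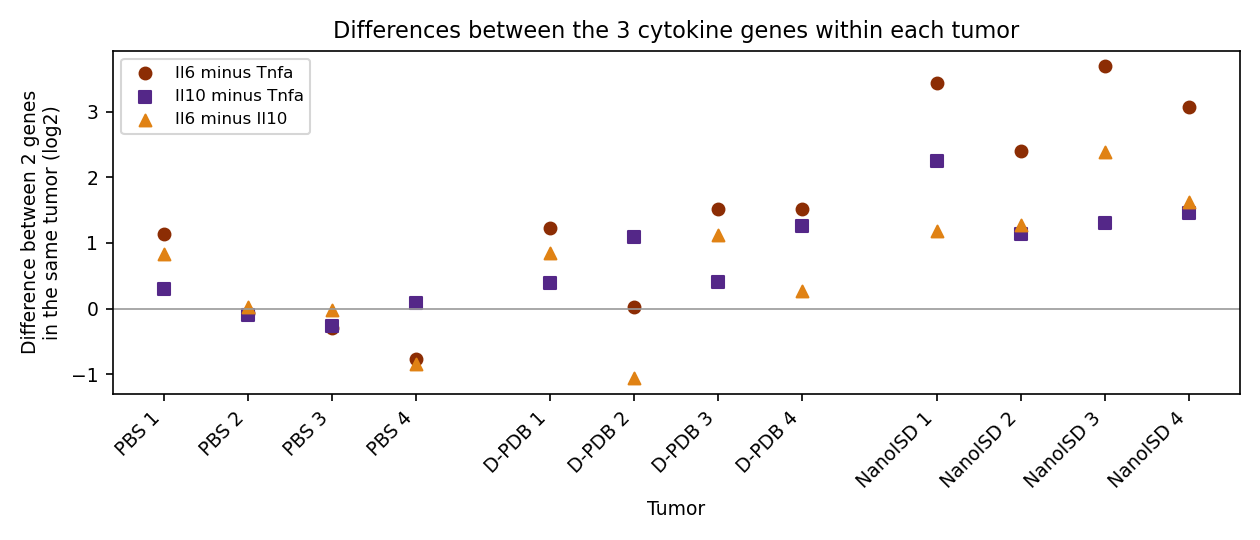
Differences between the log2 fold changes of 2 genes in the same tumor (vertical axis) for each of the 12 tumors (horizontal axis). Circles show *Il6* minus *Tnfa*, squares *Il10* minus *Tnfa*, and triangles *Il6* minus *Il10*. *Il6* minus *Tnfa* was at least 2.40 in the NanoISD-treated tumors and at most 1.52 elsewhere, whereas *Il10* minus *Tnfa* overlapped between NanoISD (1.13 to 2.25) and D-PDB (0.39 to 1.25).

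The NanoISD-treated tumors kept nearly one order across the 3 genes. *Il6* and *Tnfa* were highest in tumor 3, followed by tumors 1, 4, and 2. *Il10* was highest in tumor 1, followed by tumors 3, 4, and 2, which was also the order of the mean over the 43 panel genes (2.45, 1.65, 1.14, and 0.58). NanoISD tumor 2 was thus the lowest of its group for each gene and for the panel. Even there, *Il6* was the 3rd highest of the 43 genes and *Il10* the 8th, whereas *Tnfa* was the 36th. In the other NanoISD-treated tumors, *Il6* ranked 7th, 3rd, and 3rd, *Il10* between 13th and 14th, and *Tnfa* between 27th and 32nd.

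Among the D-PDB-treated tumors, *Il10* and *Tnfa* kept nearly one order, which *Il6* did not share. *Il10* was highest in tumors 4 and 2, the 2 tumors with the highest panel means (0.86 and 0.34). *Tnfa* was highest in tumors 2 and 4 (-0.23 and -0.30). Both genes were lower in tumor 3 and lowest in tumor 1, where *Tnfa* was at -0.64 and -0.74. *Il6* was lowest in tumor 2, at -0.20, where *Il10* was at 0.86, and was at 0.88 in tumor 3, where *Il10* was at -0.24.

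The panel genes closest to each cytokine gene were found by the root mean square difference of the log2 values over the 12 tumors. For *Il6* they were *Cxcl10* (0.82 log2 units), *Ccl4* (0.96), and *Cxcl2* (1.02), against a median of 1.63 over the other panel genes. *Ccl4* encodes a chemokine for monocytes and T cells, and *Cxcl2* one for neutrophils. *Cxcl10* took values of 3.59, 2.07, 5.64, and 4.67 in NanoISD tumors 1 to 4, and like *Il6* was highest in tumor 3 and lowest in tumor 2.

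For *Il10*, the closest gene was *Ccl3*, with 0.26 log2 units against a median of 0.83. Its values of 3.16, 0.96, 2.42, and 1.63 in the NanoISD-treated tumors differed from those of *Il10* by at most 0.08, and the largest difference over all tumors was 0.70, in D-PDB tumor 1. *Csf3* (0.44), the gene of the granulocyte growth factor G-CSF, and *Ccl4* (0.45) followed. The value of *Csf3* was the same, -0.07, in 3 of the 4 PBS-treated tumors and in D-PDB tumors 1 and 2.

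For *Tnfa*, the closest genes were *Xcl1* (0.23), which encodes a chemokine for cross-presenting dendritic cells, *Ifnb1* (0.32), and *Ccl20* (0.43), against a median of 0.95. The value of *Ccl20* was the same, 0.00, in all PBS-treated tumors, in D-PDB tumors 1, 2, and 3, and in NanoISD tumor 4. *Xcl1* was at 0.90, -0.30, 0.88, and -0.24 in the NanoISD-treated tumors, and so shared the 2 higher tumors, 1 and 3, with *Tnfa*. *Il10* was the 7th closest gene to *Il6* (1.15) and *Tnfa* the 32nd (2.01), and *Il10* and *Tnfa* lay 1.06 apart.

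**Figure D5:**
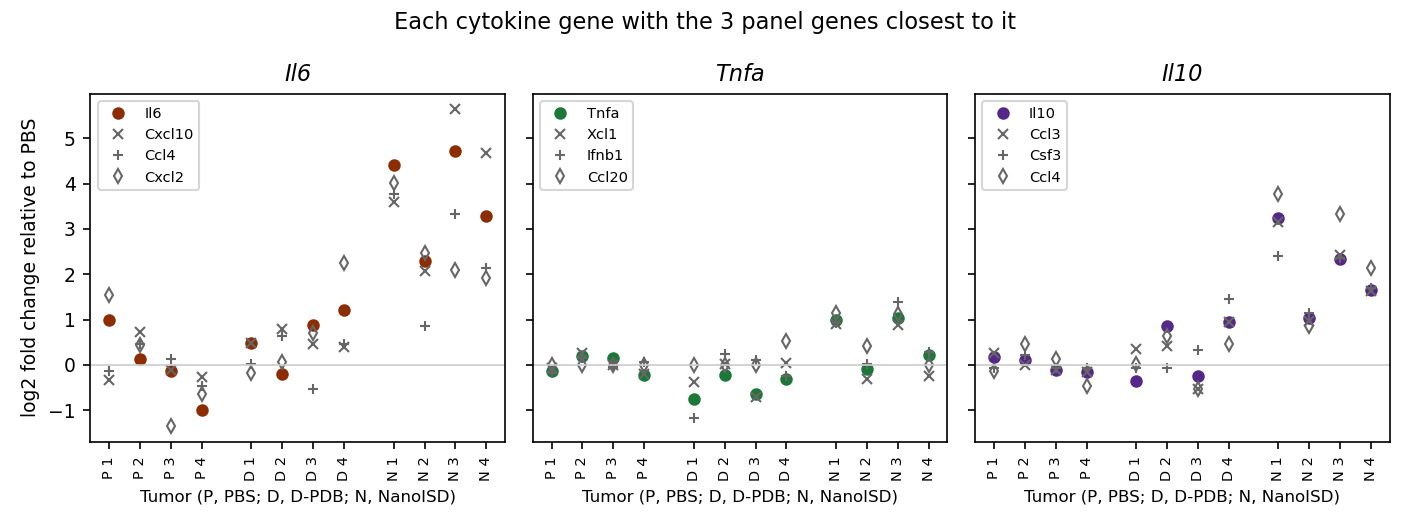
Log2 fold change relative to PBS (vertical axis) in each of the 12 tumors (horizontal axis, P for PBS, D for D-PDB, and N for NanoISD) of *Il6*, *Tnfa*, and *Il10* (filled circles), each with the 3 panel genes of smallest root mean square difference from it. *Ccl3* lay within 0.08 of *Il10* in every NanoISD-treated tumor, whereas *Cxcl10* and *Il6* differed by up to 1.39.

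Other genes of the pathway were counted from lists. Of 11 further NF-κB target genes on the panel, 8 rose after NanoISD relative to PBS, 3 did not pass, and 0 fell, beside 51.2% of the panel called higher, with a median difference of 2.01 beside 1.20 over the panel. The largest differences in this list were those of *Cxcl5* (5.47, adjusted p = 0.00117 in limma) and *Cxcl2* (2.62, adjusted p = 0.0115 in limma), which encode neutrophil chemokines. The smallest was that of *Ccl20* (0.67, adjusted p = 0.0997 in limma), which had the same value, 0.00, in all 4 PBS-treated tumors and passed without NanoISD tumor 4 (adjusted p = 0.0378). The difference of 0.54 in *Tnfa* was below each of these 11, while that of *Il6* was above all but *Cxcl5*. Relative to D-PDB, 4 of the 11 rose, 7 did not pass, and 0 fell, beside 25.6% of the panel, with a median of 1.75 beside 1.01. This count of 4 ranged from 0 to 7 over the alternative fits, and was 0 with only the 2 compared groups in the fit, 1 when D-PDB tumor 3 was left out, 2 when D-PDB tumor 1 or 2 was, and 7 when D-PDB tumor 4 or NanoISD tumor 2 was or when *Hdac3* or *Rpl19* was left out of the scaling.

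Of 5 interferon and interferon-induced genes, 3 rose relative to PBS, beside 51.2% of the panel, with a median of 1.42 beside 1.20 over the panel. Relative to D-PDB, 3 of the 5 rose, beside 25.6% of the panel, with a median of 1.67 beside 1.01. That count was 1 with only the 2 compared groups in the fit. *Cxcl10* (3.99, adjusted p = 0.000448 in limma) and *Cxcl11* (1.84, adjusted p = 0.0155 in limma), which encode T cell chemokines, had the largest differences from PBS. *Ifnb1* had the smallest (0.65, adjusted p = 0.178 in limma), close to that of *Tnfa*.

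Genes with regulatory or type 2 roles were few on the panel beside *Il10*. Of the 3 present, 1 rose relative to PBS, beside 51.2% of the panel. This was *Ccl17* (1.57, adjusted p = 0.0322 in limma), a call lost without PBS tumor 1, 2, or 3 or NanoISD tumor 1 (adjusted p up to 0.0820). *Ccl22*, which like *Ccl17* encodes a chemokine for regulatory and type 2 helper T cells, differed by 1.20 (adjusted p = 0.0719 in limma, 0.0281 without NanoISD tumor 2), and *Tgfb1*, the gene of the suppressive cytokine TGF-β, by 0.25 (adjusted p = 0.551 in limma). Relative to D-PDB, 0 of the 3 passed in limma, beside 25.6% of the panel. *Ccl17* and *Ccl22* did pass without D-PDB tumor 4 or NanoISD tumor 2, and the difference of *Tgfb1* was -0.01.

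The TNF family was represented by *Fasl*, the gene of a death ligand of cytotoxic cells, and by *Lta*, the gene of lymphotoxin α, which neighbors *Tnf* on chromosome 17. Relative to PBS, 1 of the 2 passed, beside 51.2% of the panel. *Fasl* rose by 1.19 (adjusted p = 0.0224 in limma), with values from 0.65 to 2.09 after NanoISD. That call was lost without PBS tumor 1 or 2 or NanoISD tumor 1 (adjusted p up to 0.0578). *Lta* differed by 0.12 (adjusted p = 0.770 in limma), less than *Tnfa*. Neither passed relative to D-PDB, beside 25.6% of the panel. The differences were 0.88 for *Fasl* (adjusted p = 0.0952 in limma, 0.0418 without NanoISD tumor 2) and 0.18 for *Lta* (adjusted p = 0.628 in limma). No other member of the IL-6, IL-10, or TNF families on the list was among the panel genes. Of the T cell cytokine genes, *Il2* differed from PBS by -0.18 (adjusted p = 0.611 in limma) and *Il3* by -0.38 (adjusted p = 0.305 in limma). In each of the 3 comparisons 0 of the 2 passed. The panel's shares were 51.2% for NanoISD against PBS, 25.6% for NanoISD against D-PDB, and 0% for D-PDB against PBS.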

How the data were processed

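RNA from 12 tumors was measured on the nCounter MAX system, with 100 ng of RNA per tumor. The authors processed the counts in nSolver and deposited a log2 fold change per gene and tumor, with 2 decimals. The nSolver version, the background threshold, and the counts are not given in the sources used here, so no counting error could be calculated, and the number of tumors limits the precision. Values were used as deposited, without filter or pseudocount. Of the 48 names, 47 matched a RefSeq symbol and 1 (*Tnfa*) a synonym.

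Groups and tumor numbers came from the sample titles. Each title gives a tumor, its treatment, and a replicate number, and each was taken as a separate tumor. Genes were tested with limma 3.58.1 (lmFit and eBayes) in R 4.3.3 on all 12 tumors, the 3 treatments in 1 fit, with p-values adjusted by Benjamini-Hochberg across the 43 panel genes, separately per comparison, and a threshold of 0.05. For single genes of this panel, the study states no test, only a one-way ANOVA main effect over the panel. It also measured *Il6* and *Tnf* by qPCR in B16.F10 tumors 6 hours after these treatments. By that separate assay, it reports both as significantly higher after NanoISD than after PBS or D-PDB (one-way ANOVA with Tukey test). It reports the same for *Ifnb1* and *Cxcl10*. The qPCR was normalized to *Ppib* and had more biological samples per treatment than the 4 tumors here. Exact permutation tests (two-sided, unadjusted unless stated), list counts, and motif searches were run in Python 3.11.15 with scipy 1.17.1. Both tests were checked on simulated data. The simulation for limma drew genes independently and with the same spread in each treatment. It therefore did not cover unequal spread between treatments or genes that move together in a tumor.

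The 3 genes and the lists were chosen with earlier results of these data known. Named genes were the 3 cytokine genes, the 3 closest panel genes to each, their neighbors in rank, and, per list, the 2 largest and the smallest differences from PBS. The alternatives were each tumor left out, only the compared groups, weights per tumor, a block for the replicate number, house-keeping scalings with 1 gene fewer, a robust prior, and the exact test.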

Additional observations from a re-analysis of the deposited data

How the results depend on the processing

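Over 189 alternative limma fits of the 9 comparisons of *Il6*, *Tnfa*, and *Il10*, 173 kept their direction and their side of the threshold, 16 lost the call in the same direction, and none reversed. The losses concern 2 comparisons with D-PDB. For *Tnfa*, 1.01 at an adjusted p of 0.0470 was lost in 9 fits without 1 tumor (0.84 to 1.22 over all 12 such fits), with only the 2 compared groups in the fit (1.01, adjusted p = 0.114 in limma), with array weights (0.82, adjusted p = 0.0726), with the replicate number as a block (1.01, adjusted p = 0.0732), and without *Gapdh* in the scaling (0.97, adjusted p = 0.0549). For *Il10*, it was lost in 2 fits without 1 tumor (1.37 to 2.11 over all 12) and with only the 2 compared groups (1.76). The number of panel genes called for NanoISD against D-PDB, 11, lay between 5 and 20 with 1 tumor left out and was 2 with only the 2 compared groups. The spread differed between treatments, with a median SD over the panel of 0.33 after PBS, 0.62 after D-PDB, and 0.95 after NanoISD. The fit of all 12 tumors shares 1 spread per gene. Whether this accounts for the lower count was not tested. By the exact test, the 5 called comparisons had an unadjusted p of 0.0286 and, over the panel, an adjusted p of 0.0683 or 0.154. The replicate numbers are not stated to pair tumors across treatments, and the few correlations that follow cannot decide whether they do. Same-numbered tumors had deviations from their group means that correlated between -0.52 and 0.47 across genes, 3 of 12 pairs above 0.1, and 2 of 12 tumors correlated best with their own number. The block changed no other call among the 9.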
